A study of Mus musculus with 22 samples.

Results

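The enzymes of heme synthesis were followed from the first step of the pathway to the last in RNA-seq libraries of hematopoietic stem cells and myeloid precursors from Arid1a knockout (KO) and wild-type (WT) mice. The 8 genes (Alas1, Alas2, Alad, Uros, Urod, Cpox, Ppox and Fech) were taken by name, and the values of all transcripts of each gene were summed, out of 47311 genes with a transcript in the files. All 8 were found and all 8 passed the low-count filter in every comparison.

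KO mice were Arid1a f/f;Mx1-Cre+ and WT mice were Arid1a f/f;Mx1-Cre- littermates, so both carried the floxed exon 9, on the C57BL/6 strain. Both genotypes received poly(I:C), which switches on the interferon-inducible Mx1 promoter and hence Cre, in 5 doses of 300 µg at an age of 8 to 14 weeks. Cells were sorted from bone marrow 4 weeks later. The 22 libraries held 3 WT mice (300, 305 and 309) and 3 KO mice (301, 304 and 308) for each of the common myeloid precursors (CMP), the granulocyte monocyte precursors (GMP) and the megakaryocyte erythroid precursors (MEP), and 2 WT (S245 and S269) and 2 KO samples (S244 and S270) of long-term hematopoietic stem cells (LT-HSC). The same 6 mice gave all 3 precursor populations, whereas LT-HSC RNA was amplified with another kit and was tested only within LT-HSC. Deletion in other tissues was not analysed here.

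Libraries held 40804031 to 65930737 estimated counts on genes. Arid1a transcripts, which can remain after loss of exon 9, were lower in KO samples by 0.14 (MEP), 0.22 (CMP) and 0.40 (GMP) on the log2 scale, with edgeR adjusted p of 0.0836, 0.0284 and 0.0246, and in LT-HSC by 1.14 (edgeR adjusted p = 0.421). The summed level of 18 erythroid marker genes was 1434 to 1607 TPM (a level corrected for transcript length and library total) in WT CMP, 75.6 to 200.3 in WT GMP and 8245 to 8995 in WT MEP, and 10 granulocyte-monocyte progenitor markers summed to 4133 to 5184, 31420 to 36900 and 28.0 to 63.4 TPM in the same order. LT-HSC libraries held erythroid marker sums of 6967 to 7388 TPM in both genotypes, close to those of MEP, and the sum of 8 mature neutrophil markers was 2565 TPM in WT sample S269 against 371 to 461 in the other LT-HSC samples. No erythroid or neutrophil marker was at 0 in all libraries of a group. The part of these cells in the LT-HSC values below was not tested. Among the 6 precursor mice, 4 Y-linked genes were at most 0.57 TPM in KO 304 and WT 305 and at least 9.595 TPM in the others, whereas Xist was 155 to 203.5 TPM in WT 305 and at most 0.24 TPM in the others, KO 304 included. Alas2 is on the X chromosome.

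Heme is built by a chain of enzymes that begins and ends in the mitochondrion. Alas1 lies on chromosome 9 (106233455 to 106248654, minus strand) and Alas2 on chromosome X (150547375 to 150570638, plus strand) of GRCm38. The first step, the condensation of glycine with succinyl-CoA, is the committed one and has a separate gene for red cell precursors: Alas1 serves all tissues, whereas Alas2 is the erythroid form and is also held in check by iron at the level of translation. Alad joins its products into porphobilinogen, Uros closes the ring, Urod and Cpox trim its side chains, Ppox oxidizes it to protoporphyrin, and Fech inserts the iron. Erythroid cells raise the pathway to supply hemoglobin, and several of its genes have erythroid promoters that are bound by GATA1, the lead transcription factor of that lineage.

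Promoter sequence was available for 7 of the 8 genes (RefSeq, GRCm38.p6, 10 windows). Each window was searched over the 250 bases before the start on both strands for the letters that GATA factors prefer. The words searched were AGATAA and its variant ending in G (AGATAG), together with TGATAA and the like variant TGATAG. The words were found in 3 of 10 windows, belonging to 3 genes (Alas2, Cpox and Uros), against 26.5% of the 32851 windows in the table. These 3 genes were higher in KO CMP and KO MEP by edgeR, and none of them passed the test in KO GMP. Alad, Urod and Ppox were also higher in KO CMP and KO MEP, and their windows held no GATA word. A link between the words and the rise was not tested. Capitals in the sequences mark the GATA words, which in all of these stretches are read on the opposite strand. All but the last, which lies in an exon of a Uros transcript, are stretches outside annotated exons.
Alas2, chrX:150547167-150547374, plus strand: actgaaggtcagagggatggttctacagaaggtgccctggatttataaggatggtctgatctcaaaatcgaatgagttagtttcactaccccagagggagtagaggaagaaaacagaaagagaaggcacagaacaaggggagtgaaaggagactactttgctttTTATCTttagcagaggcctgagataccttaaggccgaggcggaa
Cpox, chr16:58669958-58670207, plus strand: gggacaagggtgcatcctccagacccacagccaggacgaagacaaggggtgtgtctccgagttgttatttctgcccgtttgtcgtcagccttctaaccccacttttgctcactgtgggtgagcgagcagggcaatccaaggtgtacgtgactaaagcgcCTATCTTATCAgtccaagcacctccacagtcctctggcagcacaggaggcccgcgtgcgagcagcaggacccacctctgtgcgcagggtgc
Uros, second start, chr7:133702617-133702750, minus strand: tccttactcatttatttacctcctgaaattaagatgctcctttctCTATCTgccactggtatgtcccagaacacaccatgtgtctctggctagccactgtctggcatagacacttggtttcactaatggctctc
Uros, second start, chr7:133702551-133702580, minus strand: tctccctcagccTTATCAgtgacagagggc

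The Alas2 word began 86 bases before its start, and the Cpox window held an overlapping pair at 91 and 86 bases. Uros has 2 starts in the table. The window of its first start held no GATA word, and the second, which lies inside the gene, held words at 205 and 68 bases. The CACCC words CCACACCC and CCCCACCC, which KLF1 prefers, were found on either strand in 2 windows (Alas2, with an overlapping pair, and Alas1), against 11.8% of all windows. The windows of Alad, Urod and Ppox held neither kind of word. A match describes the letters only, and binding was not measured here.

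To find how the pathway is set before the erythroid branch, WT MEP and WT GMP were compared with WT CMP. MEP had more of 7 of the 8 enzymes and less Alas1. Of the 8 genes, 7 were higher in MEP than in CMP (34.4% of the 17476 genes tested were called higher) and 1, Alas1, was lower (38% of all genes). The median log2 change of the 8 was 1.78, against -0.04 over all genes tested. All calls are edgeR quasi-likelihood tests at a false discovery rate of 0.1, here with the mouse as a block. Because TPM values are not corrected for composition, the median gene had a TPM ratio of -0.33 on the log2 scale in MEP against CMP, and folds from the fit are relative to that shift. The fit's folds are therefore larger than those of the TPM values for genes that rose in MEP.

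Cpox had the largest rise among the 8. It stood at 32.9, 37.4 and 29.8 TPM in WT CMP (mice 300, 305 and 309) and at 171, 217 and 159 TPM in WT MEP, a log2 difference of 2.76 ± 0.05 (SE, adjusted p = 1.49e-08). Fech rose from 24.4, 23.4 and 24.5 TPM to 80.0, 90.2 and 82.6 TPM (2.12 ± 0.08, edgeR adjusted p = 1.14e-07). In both genes every MEP library was far above every CMP library. Alad (2.02), Uros (1.83), Ppox (1.74) and Urod (1.66) rose by less, with SEs of 0.07 to 0.09.

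The first step was the exception. Alas2 stood at 0.76, 1.30 and 0.44 TPM in WT CMP and at 0.89, 1.81 and 1.69 TPM in WT MEP, so the groups overlapped, although the fit called it higher (1.55 ± 0.39, adjusted p = 0.00691, edgeR). These levels rest on few reads, 16.4 to 45.8 estimated counts per CMP library and 58.4 to 97.5 per MEP library. Alas1 went the other way, from 81.4, 102 and 104 TPM in CMP to 33.2, 28.7 and 32.0 TPM in MEP (-1.16 ± 0.10, edgeR adjusted p = 9.18e-06). WT MEP thus held high levels of the later enzymes while Alas2 transcripts were still below 2 TPM in each library.

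**Figure D1:**
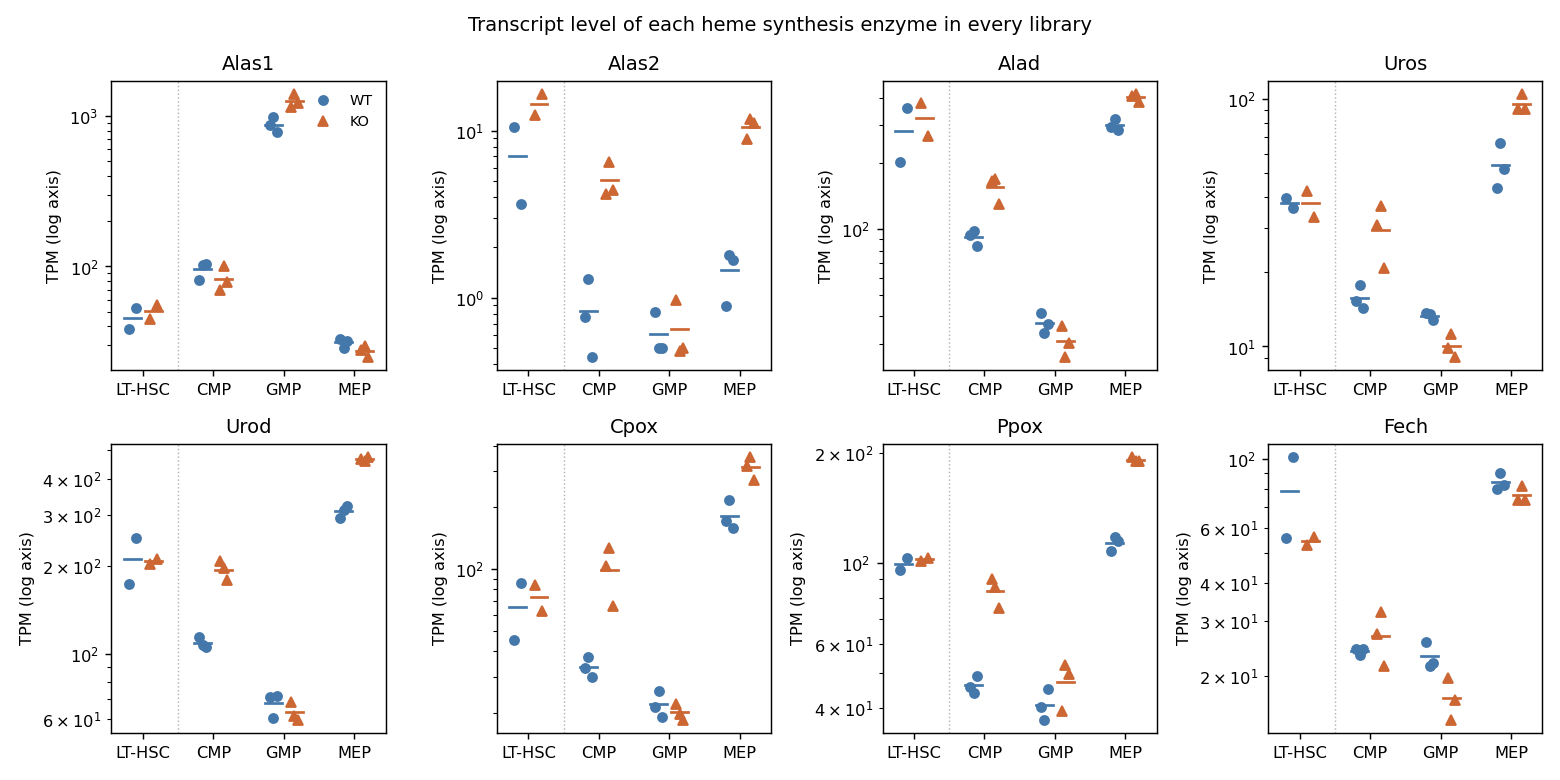
TPM (log axis) of the 8 enzymes in each of the 22 libraries, in the order of the pathway, with WT as circles, KO as triangles and a bar at each group mean (n = 3, or 2 in LT-HSC). Among the precursor populations Alas1 is highest in GMP and the later enzymes are highest in MEP, and KO triangles lie above WT circles in CMP and MEP for the genes from Alas2 to Ppox; the dotted line sets off LT-HSC, prepared with another kit.

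GMP had the opposite first step. Alas1 rose to 865, 980 and 785 TPM in WT GMP (3.23 ± 0.10 on the log2 scale against CMP, edgeR adjusted p = 1.82e-07), a 9.40-fold difference. It was the only one of the 8 called higher in GMP than in CMP (21% of all genes), and 3 were called lower (24.2% of all genes): Alad (-1.14 ± 0.09), Urod (-0.52 ± 0.07) and Cpox (-0.44 ± 0.05). Alas2, Uros, Ppox and Fech were not called, with differences of -0.02 ± 0.41, -0.14 ± 0.09, -0.16 ± 0.08 and 0.11 ± 0.08. Scaled by library totals alone, Uros (-0.28) and Ppox (-0.30) were called lower as well. As a share of the summed TPM of the 8 enzymes, Alas1 made up 19.9% to 25.3% in WT CMP, 79.0% to 83.6% in WT GMP and 2.49% to 3.24% in WT MEP.

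Set directly against each other, WT MEP and WT GMP differed for all 8 genes. Higher in MEP were 7 (36.1% of all genes tested) and lower was Alas1 (36.5%). Cpox (3.20 ± 0.05) and Alad (3.16 ± 0.09) differed most upward, and Alas1 by -4.39 ± 0.11. Of 15 genes around the pathway (such as mitochondrial transporters and heme carriers), 14 were tested, of which 13 were higher in MEP than in CMP and none was lower by edgeR.

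**Figure D2:**
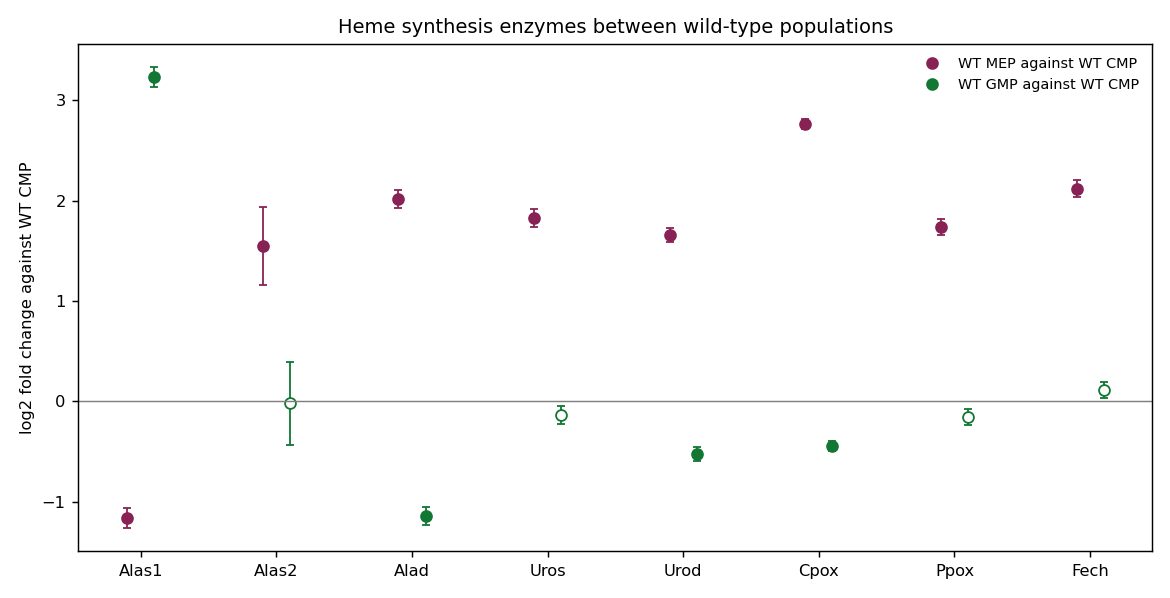
Log2 fold change of each enzyme in WT MEP and WT GMP against WT CMP (edgeR, mouse as a block, n = 3 mice), with bars for the SE, filled points for calls at a false discovery rate of 0.1 and open points for the others. The 2 populations move apart at the first step, where Alas1 is 3.23 in GMP and -1.16 in MEP.

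The KO was then compared with WT in each population, without a block. In CMP, the pathway rose from Alas2 to Ppox, and the rise ended before Fech. Of the 8 genes, 6 were called higher in KO CMP (10.6% of the 17214 genes tested were called higher) and none lower, with a median log2 change of 0.66 against 0 over all genes tested. In the same 6 genes every KO library was above every WT library, and the share of all genes without overlap was not counted. Alas1 and Fech did not pass the test.

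Alas2 rose most. It stood at 0.76, 1.30 and 0.44 TPM in WT CMP and at 4.18, 6.52 and 4.43 TPM in KO CMP (mice 301, 304 and 308). The fitted difference was 3.02 ± 0.30 on the log2 scale, or 8.11-fold (edgeR adjusted p = 0.000304). Estimated counts were 16.4 to 45.8 per WT library and 224 to 408 per KO library. Mice 305 and 304 had the highest Alas2 of their genotype, and without both the difference was 3.01 (edgeR adjusted p = 0.00194).

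Alad rose from 94.4, 98.7 and 83.6 to 165, 170 and 131 TPM (0.65 ± 0.10, edgeR adjusted p = 0.00216). Uros rose from 15.2, 17.7 and 14.3 to 31.0, 37.1 and 20.8 TPM (0.65 ± 0.17, edgeR adjusted p = 0.0302), and KO mouse 308 was nearest to the WT range. Urod rose from 115, 107 and 106 to 208, 197 and 179 TPM (0.66 ± 0.07, edgeR adjusted p = 0.000336). All 3 enzymes thus changed by similar amounts, and their KO and WT values did not overlap.

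Cpox rose from 32.9, 37.4 and 29.8 to 103, 127 and 66.5 TPM (1.46 ± 0.20, edgeR adjusted p = 0.00145). Ppox rose from 45.6, 43.9 and 49.0 to 89.9, 85.7 and 74.9 TPM (0.83 ± 0.09, edgeR adjusted p = 0.000464). Fech, the last enzyme, stood at 24.4, 23.4 and 24.5 TPM in WT and at 27.3, 32.2 and 21.6 TPM in KO, so that KO values lay on both sides of WT (0.07 ± 0.13, adjusted p = 0.805, edgeR). Its direction turned without KO mouse 304 (-0.09). Alas1 stood at 81.4, 102 and 104 TPM in WT and at 69.3, 100.2 and 78.8 TPM in KO (-0.34 ± 0.13, edgeR adjusted p = 0.125), and it was called lower under 6 of 14 alternatives.

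Marker genes of several cell types also moved in the same libraries. Of the 18 erythroid markers, 17 were higher in KO CMP by edgeR and none was lower, with a median log2 change of 2.13 and summed levels of 2762 to 3249 TPM in KO against 1434 to 1607 in WT. The granulocyte-monocyte progenitor markers summed to 1860 to 2849 TPM in KO against 4133 to 5184 in WT, and 6 of 10 were lower. Basophil and mast cell markers were lower for 5 of 7 tested and mature neutrophil markers for 5 of 8, with none higher. Megakaryocyte markers were higher for 2 and lower for 6 of 10, and stem cell markers higher for 3 and lower for 3 of 9. The part of all these markers in the rise of the heme enzymes was not tested. In sorted bulk cells, more cells of a type and more RNA per cell cannot be told apart.

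In MEP the enzymes from Alas2 to Ppox rose as well, and Alas1 and Fech were slightly lower, the latter a call lost under 11 of 14 alternatives. Of the 8 genes, 6 were called higher in KO MEP (14% of the 15777 genes tested) and 2, Alas1 and Fech, lower (15.4%), with a median log2 change of 0.62 against 0 over all genes. The 6 that rose did so with no overlap between genotypes, for which the share over all genes was likewise not counted. Alas2 stood at 0.89, 1.81 and 1.69 TPM in WT MEP and at 8.86, 11.66 and 11.04 TPM in KO MEP (2.97 ± 0.28, 7.85-fold, edgeR adjusted p = 0.000258).

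The 5 enzymes between Alas2 and Fech kept the order of their mean levels among themselves and changed by less than Alas2. Urod rose from 294, 313 and 323 to 469, 462 and 475 TPM (0.53 ± 0.05). Ppox rose from 108, 117 and 115 to 195, 190.0 and 190 TPM (0.75 ± 0.06, edgeR adjusted p = 0.000127), and Cpox from 171, 217 and 159 to 318, 352 and 272 TPM (0.75 ± 0.12). Uros rose from 43.5, 66.2 and 52.1 to 91.1, 105 and 91.0 TPM (0.71 ± 0.12), and Alad from 292, 319 and 283 to 406, 414 and 380 TPM (0.40 ± 0.05). The edgeR adjusted p of these 5 genes was at most 0.00453.

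Fech stood at 80.0, 90.2 and 82.6 TPM in WT MEP and at 73.8, 81.8 and 73.9 TPM in KO MEP. The groups overlapped and the difference of -0.17 ± 0.06 was barely called (edgeR adjusted p = 0.0954). Alas1 stood at 33.2, 28.7 and 32.0 TPM in WT and at 27.9, 29.7 and 25.0 TPM in KO (-0.28 ± 0.06, edgeR adjusted p = 0.0142), with overlap. It lost its call with a length offset (edgeR adjusted p = 0.114) and in a single fit of the 18 precursor libraries (edgeR adjusted p = 0.119).

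Erythroid markers in MEP did not give a single direction. By edgeR 12 of 18 were higher in KO and 1 was lower, with a median log2 change of 0.72. The gene that fell was Car1, a carbonic anhydrase of early erythroid cells, from 4499 ± 847 to 2172 ± 439 TPM (SD, n = 3). Since Car1 was so abundant, the summed level of the 18 markers was lower in KO MEP (7462 to 7683 TPM) than in WT (8245 to 8995). Adult beta globin Hbb-bs rose from 29.6 ± 21.3 to 221 ± 57.5 TPM, and Slc4a1, the red cell anion exchanger, from 0.65 ± 0.39 to 5.84 ± 4.03 TPM (SD, n = 3), both called by edgeR. Megakaryocyte markers were higher for 4 of 10 and lower for none, with a median of 0.90 and sums of 56.9 to 84.2 TPM in WT and 118 to 137 in KO, and stem cell markers for 3 of 8 tested, with sums of 70.5 to 73.4 and 117 to 129 TPM. Basophil and mast cell markers were lower for 3 of 5 tested and mature neutrophil markers for 2 of 8, with none higher. The part of all these markers in the MEP values was not tested.

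**Figure D3:**
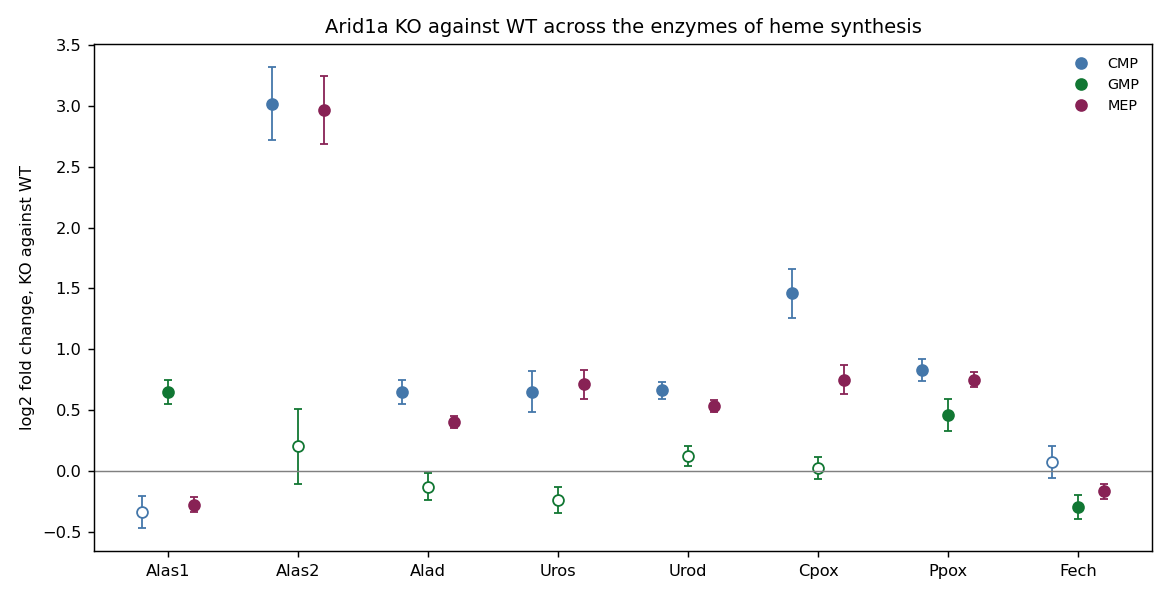
Log2 fold change of KO against WT for each enzyme in CMP, GMP and MEP (edgeR, 3 mice per genotype), with bars for the SE, filled points for calls at a false discovery rate of 0.1 and open points for the others. Alas2 lies at 3.02 and 2.97 in CMP and MEP, the enzymes from Alad to Ppox lie between 0.40 and 1.46 there, and Fech lies between -0.30 and 0.07 in all 3 populations.

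In KO GMP, 2 of the 8 genes were called higher, Alas1 and Ppox (17.5% of the 16383 genes tested were called higher), and 1, Fech, lower (16.3%), with a median of 0.07 against -0.01 over all genes tested. TPM values in KO GMP carried a shift of -0.16 in the median gene, so folds of the fit lie above those of the TPM values. Alas1 rose from 865, 980 and 785 TPM to 1152, 1397 and 1214 TPM (0.65 ± 0.10, 1.57-fold, edgeR adjusted p = 0.00143), with every KO library above every WT library. It kept that call under all 14 alternatives run.

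Ppox stood at 40.2, 37.1 and 45.0 TPM in WT GMP and at 39.2, 52.5 and 49.5 TPM in KO GMP, with overlap (0.46 ± 0.13, edgeR adjusted p = 0.0306), and lost its call under 4 of 14 alternatives. Fech fell from 25.8, 21.6 and 22.1 TPM to 19.7, 14.5 and 16.7 TPM (-0.30 ± 0.10, edgeR adjusted p = 0.0514), without overlap, and lost its call under 3 of 14 alternatives. Without WT mouse 300 the number of the 8 called in GMP was 1 instead of 3. Alas2 was near the limit of what the depth can show, at 0.50 to 0.82 TPM in WT and 0.48 to 0.97 TPM in KO (0.20 ± 0.31).

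Alad, Uros, Urod and Cpox were not called in GMP. Their differences were -0.13 ± 0.11, -0.24 ± 0.11, 0.12 ± 0.08 and 0.02 ± 0.09 on the log2 scale, and that of Cpox turned to -0.08 with library totals alone. Uros was called lower under 4 of 14 alternatives and Alad under 1. Granulocyte-monocyte progenitor markers moved beside Alas1: 7 of 10 were higher and 3 lower in KO GMP by edgeR, and their sum was 41830 to 47100 TPM against 31420 to 36900 in WT. Basophil and mast cell markers were lower for 6 of 7 tested and higher for none, with a median of -2.18 and sums of 315 to 380.1 TPM in KO against 1000 to 1476 in WT. Stem cell markers were lower for 6 of 9 and higher for 1, and mature neutrophil markers were higher for 3 and lower for 3 of 8, with sums of 164 to 367 TPM in WT and 318 to 1211 in KO. The part of these markers in the GMP values was not tested.

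The differences between populations were tested as interactions with the mouse as a block. Only Cpox differed between MEP and CMP, with a KO effect smaller in MEP by 0.68 ± 0.15 on the log2 scale (edgeR adjusted p = 0.0094; 7.37% of the 18523 genes tested were called in that direction). The other 7 had differences of -0.25 to 0.09 with SEs of 0.11 to 0.36. Between GMP and CMP, the effect on Alas1 was larger in GMP (0.99 ± 0.14, edgeR adjusted p = 0.00027; 10.9% of all genes) and the effects on 5 genes were smaller (10% of all genes): Alas2 (-2.83 ± 0.44), Cpox (-1.40 ± 0.15), Uros (-0.87 ± 0.15), Alad (-0.78 ± 0.14) and Urod (-0.54 ± 0.11).

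Between MEP and GMP the picture was alike. The KO effect was larger in MEP for 5 genes (12.2% of all genes tested), namely Alas2 (2.79 ± 0.42), Uros (0.97 ± 0.15), Cpox (0.72 ± 0.15), Alad (0.53 ± 0.14) and Urod (0.40 ± 0.11), and smaller for Alas1 (-0.93 ± 0.14; 14.6% of all genes). Ppox and Fech passed the test in none of the 3 interactions, with differences of -0.36 ± 0.15 and -0.35 ± 0.17 between GMP and CMP. Both passed there with library totals alone, and over all alternatives Ppox passed in 4 of 12 and Fech in 2 of 12 there, and Ppox in 3 of 12 between MEP and GMP.

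The balance of the first step was followed as the log2 ratio of Alas2 to Alas1 TPM within each library. In WT CMP it was -6.73, -6.29 and -7.88 (mice 300, 305 and 309) and in KO CMP -4.05, -3.94 and -4.15. In WT MEP it was -5.21, -3.99 and -4.24 and in KO MEP -1.66, -1.35 and -1.18. The KO libraries were all higher in both populations, by 2.92 in CMP and 3.09 in MEP, and the exact two-sided permutation test gave p = 0.1 in each, the smallest that 3 against 3 allows (adjusted over 4 populations, 0.2).

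In WT GMP the ratio was -10.04, -10.94 and -10.61 and in KO GMP -10.21, -11.50 and -11.25, with overlap (difference -0.46, exact permutation p = 0.4). Within mice, MEP had a higher ratio than CMP in 6 of 6 mice (mean difference 2.57) and GMP a lower one in 6 of 6 (-5.25). The exact sign-flip permutation test over the 6 mice gave p = 0.031 for each of the 3 pairs of populations, which is the smallest it allows, and the same value after adjustment. Summed over all transcripts, Alas2 never exceeded Alas1. Its share of their summed TPM was 0.42% to 1.26% in WT CMP, 5.33% to 6.11% in KO CMP, 2.62% to 5.93% in WT MEP and 24.1% to 30.6% in KO MEP.

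Alas1 values need care at the level of transcripts. Coding transcripts held only 13.0% to 29.7% of Alas1 TPM in the 18 precursor libraries and 35.6% to 50.9% in LT-HSC, and the transcript with most counts in every precursor library was Alas1-206, a non-coding form. With coding transcripts only, an alternative added after the data were seen, the difference in the ratio was 3.87 in CMP and 3.59 in MEP. By coding transcripts, Alas2 was above Alas1 in each KO MEP library. Coding Alas1 was also lower in every KO than in every WT library of CMP, and likewise in MEP. Neither pattern was tested. As whole annotated genes, Alas1 also overlaps the antisense gene 4930500F10Rik, Alas2 overlaps Apex2 and Uros overlaps Bccip. Likewise Cpox overlaps Gpr15 and Ppox overlaps B4galt3, each on the other strand. Whether the quantified transcripts overlap was not checked, and that of Cpox ends at 58680386, before its gene does at 58717636. The sources used here state no strand-specific counting, so reads from transcripts that do overlap may not be told apart.

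**Figure D4:**
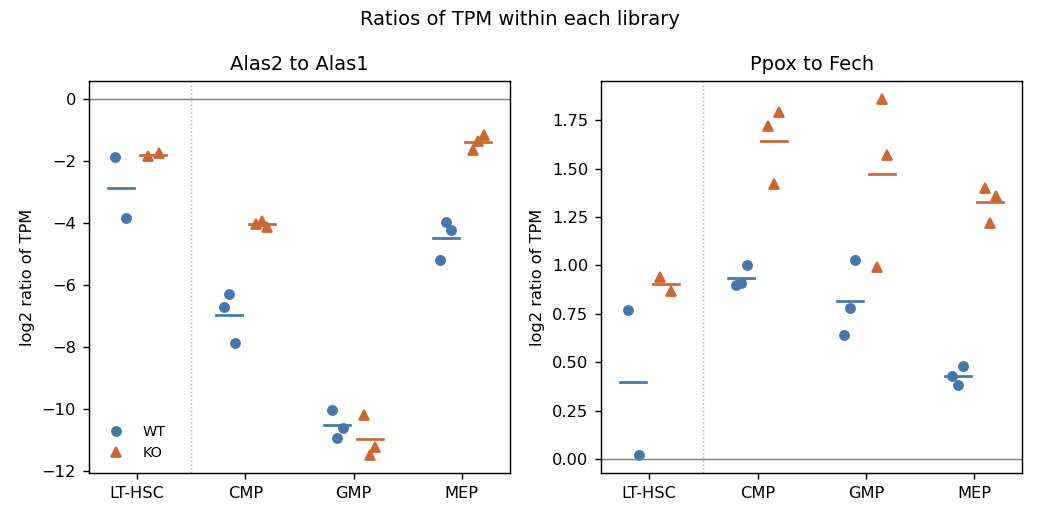
Log2 ratio of TPM within each library for Alas2 to Alas1 and for Ppox to Fech, with WT as circles, KO as triangles and a bar at each group mean. In CMP and MEP all 3 KO libraries lie above all 3 WT libraries in each panel.

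Uros had a short transcript of its own. Uros-209 (GRCm38 chromosome 7, 133701839 to 133702616, minus strand) begins near the second start and was chosen after its values were seen. Of the GATA words marked for that start, the one within 133702617 to 133702750 lies before Uros-209. The one within 133702551 to 133702580 lies inside it. Uros-209 was measured at the following levels. It stood at 0.59 ± 0.28 TPM in WT CMP and 1.96 ± 0.63 in KO CMP, and at 6.37 ± 2.39 in WT MEP and 15.4 ± 1.96 in KO MEP (SD, n = 3). In GMP it was below 0.5 TPM in each library of both genotypes. In CMP it rests on 2.5 to 7.01 estimated counts per WT library and 8.57 to 16.9 per KO library. Another Uros transcript, Uros-204, begins at 133708958, nearer the first start, whose window held no GATA word. It rose by more TPM in MEP, from 11.4, 22.5 and 14.4 in WT to 34.6, 37.0 and 35.3 in KO. No test was run on either transcript.

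The end of the pathway was described by the ratio of Ppox to Fech, a comparison also chosen after the values were seen. Its log2 value was 0.90 to 1.0 in WT CMP and 1.42 to 1.79 in KO CMP, and 0.38 to 0.48 in WT MEP and 1.22 to 1.40 in KO MEP. The groups did not overlap, and the exact permutation p was 0.1 in both, the smallest possible. In GMP the KO and WT ratios overlapped. The files hold 1 transcript of Fech out of 15 in the GENCODE annotation, and coding transcripts held 23.1% to 45.1% of Ppox TPM in the precursor libraries.

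The order of the 6 precursor groups by mean TPM was the same for Alad, Uros, Urod and Cpox, and for all 4 the first 4 groups (KO MEP, WT MEP, KO CMP and WT CMP) stood apart from their neighbours and from WT GMP. WT and KO GMP overlapped for Alad, Urod and Cpox. For Ppox, KO GMP and WT CMP and WT GMP overlapped at the low end. Fech differed from the rest in its order, with WT MEP (84.3 ± 5.35 TPM) overlapping KO MEP (76.5 ± 4.61), then KO CMP, WT CMP and WT GMP overlapping their neighbours, and KO GMP (17.0 ± 2.62) below them. For Alas2, KO MEP and KO CMP stood apart, and the other 4 groups overlapped in turn.

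In LT-HSC none of the 8 genes was called (0.0792% of the 22733 genes tested were called in either direction), and 1 of the 8 had an unadjusted p under 0.05 in edgeR. This was Alas2, at 10.5 and 3.64 TPM in WT samples S245 and S269 and at 12.5 and 16.5 TPM in KO samples S244 and S270 (1.55 ± 0.50, edgeR adjusted p = 0.744). The median gene was lower in KO LT-HSC by 0.16, against a median of 0.34 for the 8 enzymes. The spread within WT was wide: Alad was 202.4 and 360 TPM and Fech 55.8 and 102 TPM in S245 and S269. Without WT sample S269 the differences were 1.01 for Alad, 1.06 for Cpox and 0.33 for Fech. Without S245 they were -0.07, -0.11 and -0.78, and each of these fits left a lone WT sample. Alas2, Uros and Ppox did not turn direction. DESeq2 called none of the 8.

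Genes around the pathway were examined as lists. Of the 14 tested genes around the pathway, 3 were higher and 2 lower in KO CMP, 5 higher and 3 lower in KO MEP, and 5 higher and 4 lower in KO GMP by edgeR. Their median log2 changes of 0.03, -0.03 and 0.08 lay near those of all genes. Those that rose in both CMP and MEP included Slc25a38, the mitochondrial glycine importer (0.72 ± 0.11 and 0.47 ± 0.06), and Abcb6, a porphyrin transporter (0.89 ± 0.13 and 0.68 ± 0.10). Flvcr1, a heme exporter, fell in CMP (-0.38 ± 0.07), MEP (-0.60 ± 0.07) and GMP (-0.27 ± 0.10). In GMP, Abcb10, a mitochondrial inner membrane transporter, rose by 0.60 ± 0.07 and Tspo by 0.85 ± 0.06.

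Supply of the substrates showed no common direction. Of 22 genes of iron supply and iron-sulfur clusters, 5 were higher and 2 lower in KO CMP, 5 and 4 in KO GMP, and 5 and 5 in KO MEP by edgeR. Tfrc, the transferrin receptor, rose from 60.8 ± 6.04 to 108 ± 14.7 TPM in CMP (0.81 ± 0.14 log2), and Slc25a37, the mitoferrin of red cell precursors, from 24.9 ± 3.99 to 39.4 ± 8.55 TPM in MEP (0.64 ± 0.15 log2). Of 8 genes that supply succinyl-CoA and glycine, 1 was higher in CMP, none was higher and 1 lower in GMP, and 2 were higher and 2 lower in MEP. The glycine transporter Slc6a9 rose most there, from 1.27 ± 0.17 to 7.20 ± 3.23 TPM in MEP (2.48 ± 0.23 log2, edgeR adjusted p = 0.00024).

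Of 11 genes of heme use and breakdown, 4 were higher and none lower in KO CMP, 3 and 0 in KO GMP, and 4 and 2 in KO MEP by edgeR. Their median log2 changes were 0.09, 0.07 and 0.07, against 0, -0.01 and 0 over all genes, of which 10.6%, 17.5% and 14% were called higher. Hebp1, a heme-binding protein, rose in CMP, GMP and MEP (1.46 ± 0.23, 0.86 ± 0.14 and 0.55 ± 0.15), as did Eif2ak1, the heme-regulated kinase that limits translation when heme is short (0.29 ± 0.07, 0.23 ± 0.07 and 0.50 ± 0.07 in CMP, GMP and MEP). Blvrb, a biliverdin reductase, rose in CMP (1.02 ± 0.16) and MEP (0.19 ± 0.05).

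Among 17 regulators of erythroid heme genes, 5 were higher and 1 lower in KO CMP, 7 and 4 in KO MEP, and 1 and 6 in KO GMP by edgeR. Gata1 was 85.7 ± 9.38 TPM in WT CMP and 115 ± 20.1 in KO CMP (0.35 ± 0.12 log2, edgeR adjusted p = 0.0814), and 224 ± 5.80 and 223 ± 7.76 TPM in MEP (-0.02 ± 0.04, not called). In GMP it fell from 14.1 ± 0.27 to 6.68 ± 1.22 TPM (-0.90 ± 0.12 log2). Klf1, which drives globin and membrane genes, rose by 1.15 ± 0.13 in CMP and 0.37 ± 0.07 in MEP, and Gata2, which precedes Gata1 in this lineage, fell by 0.69 in CMP, 1.84 in MEP and 1.70 in GMP, each called by edgeR. Epor, the erythropoietin receptor, rose by 1.25 ± 0.12 in CMP and 0.43 ± 0.04 in MEP.

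The genes whose profile over the 18 precursor libraries was most like that of Alas2 were found by the smallest root mean square difference of centred log2(TPM + 1) values among 13765 genes. The nearest 10 were Arrb1, Aldh3b2, Gas2l1, Kcnip2, Fn3k, Slc4a1, Pcx, Arl5a, Mip and Tent5c, with differences of 0.373 to 0.481. Their mean levels in WT CMP ranged from 0.07 TPM for Kcnip2 to 64.6 TPM for Arrb1. The added 1 TPM shrinks differences at low levels, those of Alas2 included. Slc4a1, the anion exchanger, was at 0.64 TPM in WT CMP and 4.25 in KO CMP on average, and at 0.65 and 5.84 in MEP. Among the other enzymes Ppox was nearest, at rank 47 (0.62), followed by Urod at 104 and Uros at 111. Fech was at rank 2045 (0.94) and Alas1 at 13645 (2.99), close to the end of the list.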

How the data were processed

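The 8 enzymes and the other gene lists were chosen with earlier results of these data known. The authors sorted the cells, sequenced RNA and, per the labels, quantified transcripts with kallisto on mm10. The deposited tables hold estimated counts and TPM for 115088 transcripts in each of 22 libraries. The effective length column entered only the length offset. Transcripts were paired with genes through GENCODE (99.2% paired) and summed per gene, and estimated counts were rounded. Tests used edgeR 4.0.16 quasi-likelihood fits with TMM factors and filterByExpr on the whole table, with Benjamini-Hochberg adjustment over all genes tested and a false discovery rate of 0.1. KO was compared with WT in each population without a block. WT populations and interactions had the mouse as a block, since the labels give the same 6 mouse numbers in the 3 precursor populations. Ratios of TPM were tested by exact permutation. Named genes were the 8 enzymes, Arid1a, Gata1, Klf1, Gata2, at most 3 genes per list, direction and population with the largest change among those called with no overlap between KO and WT, and the 10 genes most like Alas2. Any other gene named was chosen after its values were seen. Samples of a group came from separately numbered mice, except that for LT-HSC nothing states whether a sample was 1 mouse or a pool. At 40804031 to 65930737 estimated counts per library, Alas2 was the only enzyme with fewer than 100 counts in a library. Alternatives were median-of-ratios factors, no filter, a length offset, DESeq2 1.42.0 with that offset, other blocks, leaving out libraries or mice 304 and 305, 1 fit of 18 libraries and, added after the data were seen, library totals alone and coding transcripts. The edgeR fits with main settings were tested on simulated data, except the comparisons of MEP with GMP. The alternatives were not. Promoter windows came from RefSeq (GRCm38.p6). Protein sequences were not used here. 1 item is not reported here.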

Additional observations from a re-analysis of the deposited data

Results flagged for a closer look

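The following values are differences in the KO effect between populations that passed the edgeR test of the difference itself, on the log2 scale. Between MEP and CMP the effect on Cpox differed by -0.68. Between GMP and CMP it differed by 0.99 for Alas1, -2.83 for Alas2, -0.78 for Alad, -0.87 for Uros, -0.54 for Urod and -1.40 for Cpox. Between MEP and GMP it differed by -0.93 for Alas1, 2.79 for Alas2, 0.53 for Alad, 0.97 for Uros, 0.40 for Urod and 0.72 for Cpox. The last 2 sets share the GMP libraries, and the first 2 share the CMP libraries. Groups of 2 or 3 libraries were too small for a test of outlying samples.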

How the results depend on the processing

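In CMP and MEP the calls of Alas2, Alad, Urod, Cpox and Ppox stood under all 14 alternatives, and Uros lost its call in CMP in 1 (without WT mouse 309, edgeR adjusted p = 0.102). Over the 8 enzymes, 844 of 920 values kept direction and side of the threshold, 25 turned direction, 21 lost a call and 30 gained one. Where a value moved, the cause was not tested. The difference in the Alas2 to Alas1 ratio was 1.94 in CMP and 2.42 in MEP with TPM + 1, and 3.87 and 3.59 with coding transcripts only. The number of the 8 enzymes called in LT-HSC was 1 without a low-count filter and ranged from 0 to 4 when 1 sample was left out, which leaves a lone sample assumed to vary like the other genotype. In GMP it ranged from 1 to 3 with 1 library left out. WT and KO libraries share no number in the labels. Paired by column order, their deviations correlated at 0.0787 to 0.602 in the precursors, below 0.1 in 1 MEP pair. WT and KO libraries out of that order correlated at -0.375 to -0.0524 in GMP, -0.479 to 0.231 in CMP and -0.558 to 0.408 in MEP. Deviations were taken from each genotype's own mean and cancel within a genotype. The values out of order are therefore not independent of those in order. As the labels do not give the pairing, the main tests did not use it. With that pairing as a replicate block, 5 enzymes were called in GMP, Alas1 and Ppox higher and Alad, Uros and Fech lower. The share of all genes called with the block is not given. In the main GMP fit 17.5% of all genes were called higher and 16.3% lower. With the block, Klf1 differed by 0.14 in LT-HSC and -0.01 in GMP, and Alas1 was called lower in CMP (edgeR adjusted p = 0.00729). Over all genes, the number called in LT-HSC was 18, against 286 without the filter, 253 with DESeq2 and 115 with the block. It fell from 4638 to 3040 in MEP without KO 301, from 7913 to 5253 in WT GMP against CMP without 309, from 2416 to 1610 and 1464 between the effects in MEP and CMP without 301 and 309, and from 3887 to 2577 between GMP and CMP without 309.

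The values that turned direction, with the other end of the range over left-out libraries, were as follows. In LT-HSC, without WT S245, Alas1 was -0.07, Alad -0.07, Urod -0.09, Cpox -0.11, Fech -0.78, Gata1 -0.96 and Klf1 -0.59. Without WT S269, Fech was 0.33, Gata1 0.45, Klf1 0.89, Alas1 0.85, Alad 1.01, Urod 0.66 and Cpox 1.06. Without KO S270 Klf1 was 0.18 and Gata2 -0.27, and without KO S244 Gata2 was 0.02. In CMP, Fech was -0.09 without KO 304, 0.20 without KO 308 and -0.11 without mice 304 and 305. In GMP, Cpox was -0.02 without WT 300, -0.03 without KO 301, -0.07 without WT 309, 0.11 without WT 305 and -0.08 with library totals, and Klf1 was -0.01 with a length offset, -0.06 without WT 305, -0.17 without KO 308, 0.13 without KO 304 and -0.09 with library totals. In WT GMP against CMP, Alas2 was 0.02 with median-of-ratios factors and 0.35 and -0.23 without WT 305 and 309, Ppox 0.01 with DESeq2 and Fech -0.03 with library totals. Between the KO effects in MEP and CMP, Alas1 was -0.03 without mouse 301 and -0.02 without 305 (0.20 without 300), Alas2 0.33 with a length offset, 0.31 with DESeq2, and 0.02, 0.02, 0.06, 0.24 and -0.42 without mice 301, 304, 305, 309 and 300, and Uros -0.01 with DESeq2 and -0.08 without 308. Below about 100 estimated counts, as for Alas2 in WT precursors, counting error limits the fold.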
